A study of Mus musculus with 10 samples.

Results

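Among the 4695 autosomal H3K27me3 peaks called in WT CD71+Ter119-/lo fetal liver cells, 1406 lay away from promoters and shared no base with an Mtf2 peak of the same cells. These distal peaks without Mtf2 were chosen by a rule with 2 parts. No base of the peak fell within 5 kb of the transcription start site (TSS) of a protein-coding gene, and no base fell in a peak of the Mtf2 list. The other autosomal peaks were 2577 distal peaks with Mtf2 and 712 peaks near a TSS. In all, the 6 peak lists of the series held 50907 peaks.

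H3K27me3 is the methylation mark that Polycomb repressive complex 2 (PRC2) places on histone H3 at silenced genes. Mtf2, also called Pcl2, is an accessory subunit of PRC2 that binds unmethylated CpG-rich DNA and helps the complex find its targets, which in most cells are CpG islands at the promoters of developmental genes. Pro-erythroblasts are early red blood cell precursors, here the CD71+Ter119-/lo fraction, and erythroblasts are the more mature Ter119 high cells. Mammalian genomes also hold many copies of transposable elements and tandem gene clusters, where a short read can match more than 1 place.

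The libraries came from e14.5 fetal liver of WT and Mtf2-null (Pcl2-/-) embryos of C57Bl/6 background. The null line came from gene-targeted ES cells aggregated with CD1 blastocysts and carries the deletion in all tissues, so the erythroid cells grew in a liver that also lacked Mtf2. Each genotype was sorted into CD71+Ter119-/lo and CD71+Ter119high cells, and 500000 cells went into each sample. H3K27me3 and an IgG control were sequenced in both fractions of both genotypes, and Mtf2 in both WT fractions, which gives 10 libraries with 1 per condition. The study states replicates of 2, and whether they were pooled is not given in the sources used here. The WT H3K27me3 and Mtf2 libraries of a fraction share an IgG library. The series' design text opens with H3K4me3, while the labels name H3K27me3 throughout. The WT pro-erythroblast H3K27me3 library had 18945784 unique tags and its IgG library 16898992. The Mtf2 library of the same cells had 29009650. Over all libraries the ChIP depth ran from 15669899 to 67169672 unique tags. No spread between replicates exists, so the intervals given with shares are 95% Wilson intervals and those given with medians are 95% intervals from order statistics. They cover counting over peaks only, neighbouring or sequence-related peaks are not independent, and no test between conditions was made.

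RNA levels were not analysed here, so the fraction was checked only by the mark at marker genes of erythroid and other fetal liver cells. None of 10 erythroid genes, among them Gata1, Klf1 and Tfrc, had an H3K27me3 peak within 5 kb of a TSS in the WT pro-erythroblast or erythroblast list. Of 13 matched markers of hepatocytes, megakaryocytes, myeloid, lymphoid and endothelial cells, 1 had such a peak in pro-erythroblasts (Itga2b, a platelet integrin) and 4 had one in erythroblasts, namely the myeloid factor Cebpa, the B cell factors Pax5 and Ebf1 and the endothelial receptor Kdr. Of all 22238 protein-coding gene symbols, 3.30% had such a peak in pro-erythroblasts and 11.5% in erythroblasts, so 10 genes without one do not identify the cells.

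Sequences under the summits are shown first, because many of these peaks shared theirs with other members. Of the stretches of 200 bases shown, 5 stand for families of members that align to each other, and 4 for members that aligned to no family, among them CpG-rich ones. All are on the plus strand of NCBIM37, the assembly called mm9. Capitals mark each CG dinucleotide, the site Mtf2 can bind when unmethylated, except in family R12, where they mark a word of 32 bases found 2 times in the stretch.
Family R1, within the gene Wnt5b, chr6:119450926-119451125: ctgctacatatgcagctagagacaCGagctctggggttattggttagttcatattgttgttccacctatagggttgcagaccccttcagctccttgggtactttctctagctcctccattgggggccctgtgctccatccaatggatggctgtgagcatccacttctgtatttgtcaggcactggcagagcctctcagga
Family R2, within the gene Mtus2, chr5:148847768-148847967: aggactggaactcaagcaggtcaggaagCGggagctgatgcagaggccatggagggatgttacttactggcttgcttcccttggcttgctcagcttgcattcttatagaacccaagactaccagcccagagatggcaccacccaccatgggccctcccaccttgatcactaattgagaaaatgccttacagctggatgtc
Family R3, between genes, chr14:10056086-10056285: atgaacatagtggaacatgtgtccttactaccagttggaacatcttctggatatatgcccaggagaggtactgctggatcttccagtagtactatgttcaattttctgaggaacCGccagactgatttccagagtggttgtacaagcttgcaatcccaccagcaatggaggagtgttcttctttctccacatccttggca
Family R6, within the gene Tm2d1, chr4:98033899-98034098: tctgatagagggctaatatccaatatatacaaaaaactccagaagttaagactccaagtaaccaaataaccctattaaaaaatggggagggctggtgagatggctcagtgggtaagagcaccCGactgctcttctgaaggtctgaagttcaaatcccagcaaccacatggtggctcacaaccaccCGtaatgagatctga
Family R12, between genes, chr13:65905628-65905827: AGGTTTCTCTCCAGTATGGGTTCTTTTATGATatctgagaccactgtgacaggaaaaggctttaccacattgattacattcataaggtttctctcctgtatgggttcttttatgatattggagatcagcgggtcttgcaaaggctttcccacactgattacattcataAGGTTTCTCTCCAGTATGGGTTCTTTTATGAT
CpG island-like member nearest Zfp322a, chr13:23405322-23405521: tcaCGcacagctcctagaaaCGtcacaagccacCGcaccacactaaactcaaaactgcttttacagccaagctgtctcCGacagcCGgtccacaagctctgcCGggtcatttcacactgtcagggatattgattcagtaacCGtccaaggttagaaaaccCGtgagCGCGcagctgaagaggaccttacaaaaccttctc
Member nearest Evi5, chr5:108151770-108151969: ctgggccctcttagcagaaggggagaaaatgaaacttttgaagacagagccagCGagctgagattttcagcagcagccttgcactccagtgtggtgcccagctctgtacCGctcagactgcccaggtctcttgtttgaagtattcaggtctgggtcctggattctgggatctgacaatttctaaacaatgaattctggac
Member nearest Fcgr3, chr1:173015668-173015867: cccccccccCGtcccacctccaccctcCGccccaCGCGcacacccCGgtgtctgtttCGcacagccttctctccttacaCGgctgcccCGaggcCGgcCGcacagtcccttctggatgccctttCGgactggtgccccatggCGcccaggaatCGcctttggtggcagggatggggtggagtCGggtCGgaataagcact
Member nearest Ahdc1, chr4:132648544-132648743: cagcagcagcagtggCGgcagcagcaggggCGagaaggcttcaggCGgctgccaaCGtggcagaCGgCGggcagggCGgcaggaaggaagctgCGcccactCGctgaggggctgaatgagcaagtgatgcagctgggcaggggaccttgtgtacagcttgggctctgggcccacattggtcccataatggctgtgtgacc

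The 200 bases of the members nearest Fcgr3, Zfp322a and Ahdc1 held 15, 10 and 9 CG dinucleotides. Those of R1, R2, R3 and R12 held 1 each, and those of R6 and of the member nearest Evi5 held 2 each. The members nearest Evi5, Fcgr3 and Ahdc1 were picked as the highest scoring with a WT erythroblast H3K27me3 peak and no family, so both traits are set by the choice. The member nearest Zfp322a was picked as the CpG island-like one with the highest score. It also aligned to no family and was met by a WT erythroblast H3K27me3 peak. Of all 552 members without a family, 5.98% were met by such a peak.

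Distal peaks without Mtf2 had the lowest median score of the 3 classes. The score is 10 times the -log10 of the peak caller's p, and its cutoff of 1e-05 corresponds to 50. Members had a median score of 56.1, with an interval of 55.7 to 56.4, and ran from 50.01 to 148. Distal peaks with Mtf2 had a median of 61.0 and peaks near a TSS 56.7. Of the members, 68.2% scored under 60, against 46.1% of distal peaks with Mtf2 and 63.1% of peaks near a TSS. Only 11 of the 1406 reached 100, or 0.782%, against 170 of 2577 distal peaks with Mtf2, or 6.60%. Because the caller chose the peaks on this value, these figures describe the list and support nothing.

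Members held few tags. Their median was 19 tags per peak, and 286 of them, 20.3%, sat at 16, the smallest count in the class. Distal peaks with Mtf2 had a median of 26 tags, and 6.83% of them had 16. Peaks near a TSS had a median of 18, with 24.4% at 16. Median fold enrichment over IgG was 9.14 for members, with a range of 4.01 to 26.1, against 9.53 with Mtf2 and 9.14 near a TSS. Median length was 706 bp for members and 959 bp for distal peaks with Mtf2. The FDR that the caller estimated by exchanging ChIP and IgG had a median of 11.8% and a lowest value of 5.18% in members, so none was at or below 5%. Of all 4695 autosomal peaks of the list only 1 was, and their median FDR was 11.2%. Together the members covered 1.16 Mb and took 0.172% of the unique tags.

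**Figure D1:**
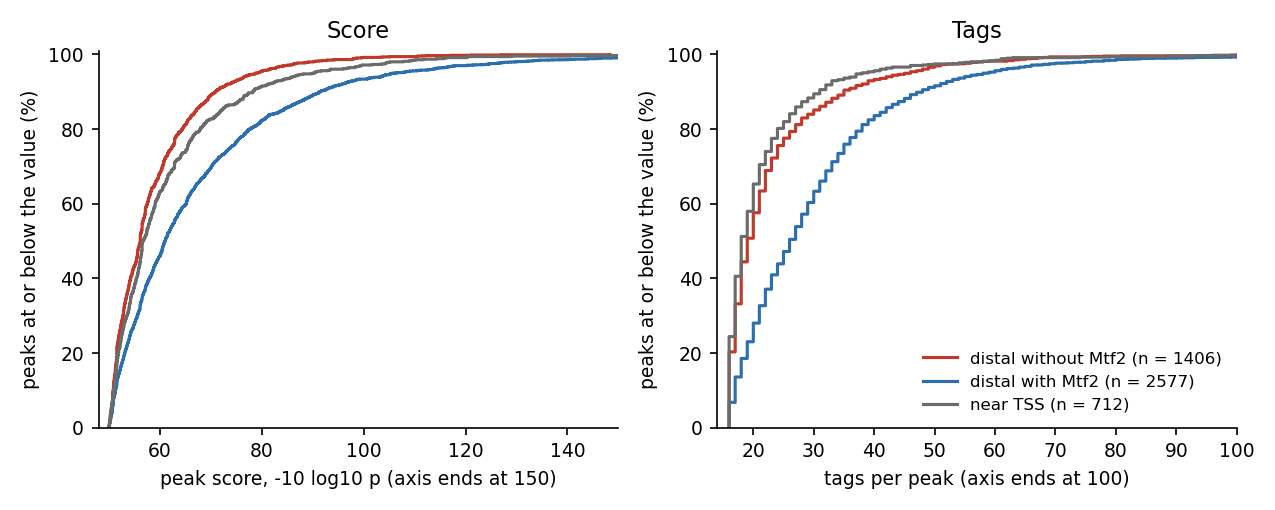
Cumulative share of WT pro-erythroblast H3K27me3 peaks (vertical axis, percent) by peak score (left) and by tags per peak (right), for distal peaks without Mtf2, distal peaks with Mtf2 and peaks near a TSS. The curve of the 1406 members rises first in score, with 68.2% of them under 60, and 20.3% of members start at 16 tags.

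The highest score of all members, 148, belonged to a peak of only 197 bp with 16 tags at chr15:54360201-54360397, which lay 42.6 kb upstream of Mal2, a membrane protein gene, and had a fold of 10.7. Next came a peak of 1980 bp with 58 tags and a score of 127 at chr11:74422023-74424002, 9.76 kb upstream of E130309D14Rik, which RefSeq calls Ccdc92b. An intron of Dcdc2c held the third, with 19 tags and a score of 121.2. The fourth, with 47 tags and a score of 117, lay 76.7 kb downstream of the start of Evi5, which encodes a cell cycle regulator. The next 4 by score, from 110.4 to 112.3, lay nearest Gm16391, in an intron of Gabrb1, a GABA receptor gene, and nearest Gm9590 and Gm17312, with 26, 40, 45 and 27 tags. By fold, the first was a peak of 28 tags in an intron of Ttc15 at chr12:29417451-29418585, with a fold of 26.1 and a score of 71.2. The 7 that followed by fold, from 22.5 to 24.95, were nearest Gm6685, Olfr748, Ndufa4, Mrs2, Gm16391, Tox and Slc4a3, with 20 to 41 tags. The 5 longest, of 2571 to 3226 bp, lay near Nxph1, in Trpm8 and near Gm9758, Sntb1 and Gm6320, with 95, 125, 99, 96 and 81 tags, and the longest, near Nxph1, had a score of 53.2. The most tags, 135, lay in a peak of 985 bp in an intron of Dock2, a gene for an activator of Rac in blood cells, and its fold was only 4.91. High score, high fold and many tags thus picked different members, and the peak of family R1 in Trpm8, a cold-sensing channel gene, joined 125 tags with a fold of 5.40.

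Values at the limits of the rule follow. The member closest to an Mtf2 peak was 4 bp from it and had 19 tags and a score of 55.7. The 3 distal peaks that shared least with Mtf2 shared 10, 12 and 15 bases and scored 62.9, 50.6 and 57.9. The member whose edge came closest to a TSS was 5041 bp from it, near Nkx3-2, a homeobox gene, with 16 tags and a score of 56.5. Its nearest counterpart on the other side of the limit, without Mtf2, lay at 4999 bp with 17 tags and a score of 54.2.

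Sequence under the summits was repeated elsewhere in the genome far more often than in the genome at large. In the 300 bases around each summit, words of 50 bases were looked up in chromosomes 1 to 19, X and Y on both strands, and the share found exactly once was noted. Members had a median single-copy share of 72.7%, with an interval of 70.5 to 74.9%. For comparison, 20320 windows set every 100 kb along the autosomes, outside TSS windows and Mtf2 peaks, had a median of 100%. Distal peaks with Mtf2 had a median of 7.17%, and peaks near a TSS 100%. Under 50% of the words were single-copy in 28.1% of members, 91.0% of distal peaks with Mtf2, 19.5% of peaks near a TSS and 7.82% of the grid windows.

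With words of 25 bases, the tag size that the peak caller recorded, the medians were 29.7% in members, 0% in distal peaks with Mtf2, 96.2% near a TSS and 98.9% in the grid. With words of 100 bases the member median was 100%. Distal peaks without Mtf2 thus stood between the grid and the distal peaks with Mtf2, and the order of these 3 classes was the same at 25 and 50 bases. One of the 2577 distal peaks with Mtf2 was left out because its window held unknown bases. The alignments' file names call the genome masked, and how reads with several matches were placed is not given in the sources used here, so their part in where peaks were called was not tested.

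**Figure D2:**
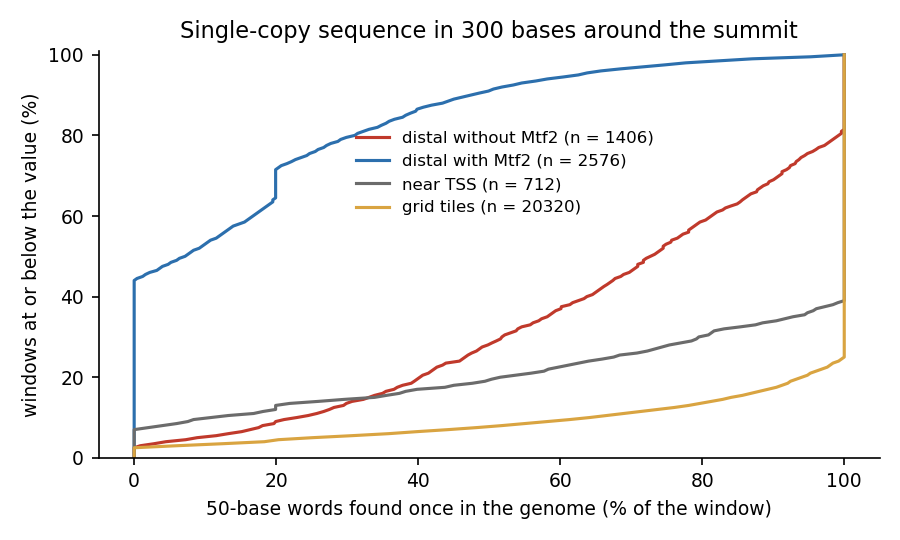
Cumulative share of windows (vertical axis, percent) by the percent of 50-base words in the 300 bases around the summit that occur once in the genome (horizontal axis), for the 3 peak classes and the grid windows. Members run between the distal peaks with Mtf2, on the left, and the grid windows, which mostly sit at 100%.

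Members were then compared with each other by sequence. When the 300-base windows were aligned to each other, 1160 of 1406, or 82.5%, matched at least 1 other member over 100 or more bases, a share that was not computed for the other classes or the grid. Grouping each time around the window with the most matches gave 16 families of 20 or more, called R1 to R16 in the order they were drawn, and 854 members (60.7%, interval 58.2 to 63.3%) aligned to the central window of at least 1. With at least 200 aligned bases, a length chosen after the data were seen, the number was 418, or 29.7%, against 3.77% of grid windows. Because the families were built from members, that share is set by the way they were made. Of the grid windows, 11.4% aligned to a family, and of distal peaks with Mtf2 and peaks near a TSS 21.3% and 20.5%. Of the other lists, 52.5% of Mtf2-null erythroblast, 23.7% of Mtf2-null pro-erythroblast and 10.4% of WT erythroblast H3K27me3 peaks aligned to one, as did 38.03% and 39.2% of the pro-erythroblast and erythroblast Mtf2 peaks, so other peak lists held these families too. No repeat annotation was used, so the families carry no element names.

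Families R1 and R2 were the largest, with 167 and 162 members, 11.9% and 11.5%. Their members lay on 19 of 19 autosomes each, with at most 16 and 15 on 1 chromosome. Neither differed much from the rest in strength. The median score was 55.7 in R1 and 56.4 in R2, and the median tags 19 and 18. R1 aligned to 1.86% of grid windows and R2 to 0.512%. Both were poor in CpG, and the median ratio of observed to expected CpG in 1 kb around the summit was 0.108 and 0.0866.

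The other families were smaller. R3, with 88 members, R5, with 83, and R8, with 31, lay at a median of 145, 93.7 and 184 kb from a TSS. Of their summits 18, 19 and 5 were inside genes. The largest median distance of the 16 families was that of R15, 207 kb, and R1 and R14 lay at 98.9 and 99.9 kb. R4, with 67 members, and R7, with 38, lay at 31.9 and 32.05 kb, and R6, with 59, at 22.5 kb. In R6 24 summits were inside genes, or 40.7%, and in R7 16, or 42.1%. The median identity to the central window was 86.3% in R1, 89.5% in R2 and 92.1% in R11, and lowest in R10 at 76.9%. R9, R11 and R15 held more tags than R1, with medians of 29, 32 and 43, while their median scores were 53.7, 56.2 and 54.9. R14, with 94 members, shared sequence with R1, and 1 window can count in both.

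Few of the genomic matches of a family lay at the summit windows of members. A match is an aligned stretch, and 1 member can hold more than 1. No share for the genome at large was computed beside these. R1 matched 118637 places on the autosomes, and of the 108565 outside TSS windows and Mtf2 peaks 204 lay at members, 0.188%. R2 matched 38066 places, with 176 of 31308 at members, 0.562%. Any peak of the WT pro-erythroblast H3K27me3 list met 425 of all R1 matches, 0.358%, and 488 of all R2 matches, 1.28%. For R6, which matched 141538 places, the share was 0.0800%. The highest share among the 16 families was 3.87%, that of R12, with 22 of 568.

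Family R12, described in more detail after it was seen, fell in zinc finger genes wherever a summit lay in an exon. Its 200-base stretch matched itself best at a shift of 84 bases, with 87.9% of letters the same, which is 28 codons, the length of a C2H2 zinc finger with its linker. Such patterns were counted in the coding sequences of the 6 genes that spanned an R12 summit lying in a protein-coding exon. Gm13212 had 20, 5430403G16Rik 19, Gm14412 15, Gm13242 14, Gm13157 11 and Gm12588 9. Gm13212 and Gm13242 spanned the same summit, and which of them owned the exon was not checked. RefSeq calls Gm13242 Zfp980 and Gm13157 Zfp984. Of all 22594 protein-coding genes with a coding sequence, 469, or 2.08%, had at least 5 patterns. C2H2 zinc finger genes of this kind form large tandem clusters in the mouse genome, and many of their proteins bind transposable elements.

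The 22 peaks of R12 had a median of 38 tags, a median score of 63.0 and a median length of 1360 bp, each above the 19 tags, 56.1 and 706 bp of all members. Their median fold over IgG, 7.52, was below the 9.14 of all members. Of them, 12 lay on chromosome 12 between 18.4 and 24.8 Mb. Some had the TSS of the predicted gene Gm17391 as the nearest, at 38.8 to 525 kb, or that of Gm17680, at 20.3 and 214 kb. Over all members, in R12 or not, the TSS of Gm17391 was the nearest to 7 and that of Gm17680 to 5. Exon summits numbered 5, out of 17 among all members. The exon peak within the span of both Gm13212 and Gm13242 had 63 tags and a score of 105, and lay 5057 bp from a TSS at its edge. The one in 5430403G16Rik had 34 tags and a fold of 20.3. The 50-base words of R12 windows were single-copy at a median of 21.5%, the lowest median of the 16 families.

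Families were not shared evenly among the peak lists. R2 aligned to 6.33% of WT pro-erythroblast Mtf2 peaks and 6.65% of WT erythroblast Mtf2 peaks, but to 0.676% of Mtf2-null pro-erythroblast and 0.351% of Mtf2-null erythroblast H3K27me3 peaks. In WT erythroblast H3K27me3 peaks the share of R2 was also low, at 1.10%. R10, with 25 members, aligned to 2.14% and 2.75% of the Mtf2 lists and 3.34% of distal peaks with Mtf2. It aligned to none of the summit windows of the 1331 and 5127 autosomal peaks of the null lists. These counts of 0 allow at most 0.225% and 0.0585% of windows. R10 aligned to 0.0295% of grid windows, below both limits, so these counts do not set the null lists apart from the grid. Over whole peaks, 13 of its 4213 autosomal matches met a Mtf2-null erythroblast peak and 0 a Mtf2-null pro-erythroblast one. In the WT erythroblast H3K27me3 list R10 aligned to 2 of 4455 summit windows. R12 aligned to no summit window of the null H3K27me3 peaks or of the 4455 WT erythroblast peaks, with at most 0.0673% of windows permitted in the latter. The grid share of R12 was 0.0295% as well, below the limits of all 3 lists, so no absence beyond the grid is shown. Over whole peaks, 1 of its 764 autosomal matches met a WT erythroblast H3K27me3 peak and 1 a Mtf2-null erythroblast one. In the WT pro-erythroblast H3K27me3 list 35 did. R12 was built from 22 members of that list, so this higher count is set in part by the way the family was made. By contrast R3 and R5 took 8.76% and 10.4% of the Mtf2-null erythroblast list, and R9 took 7.06% of that list against 1.92% of members. R1 was frequent both in the Mtf2 lists, at 6.16% and 7.57%, and in that null list, at 6.59%. The null libraries had 37026535 and 67169672 unique tags against 18945784 and 30054186 in WT, and other IgG libraries, so genotype, depth and control cannot be told apart here, and between the Mtf2 and H3K27me3 lists the antibody differs as well.

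**Figure D3:**
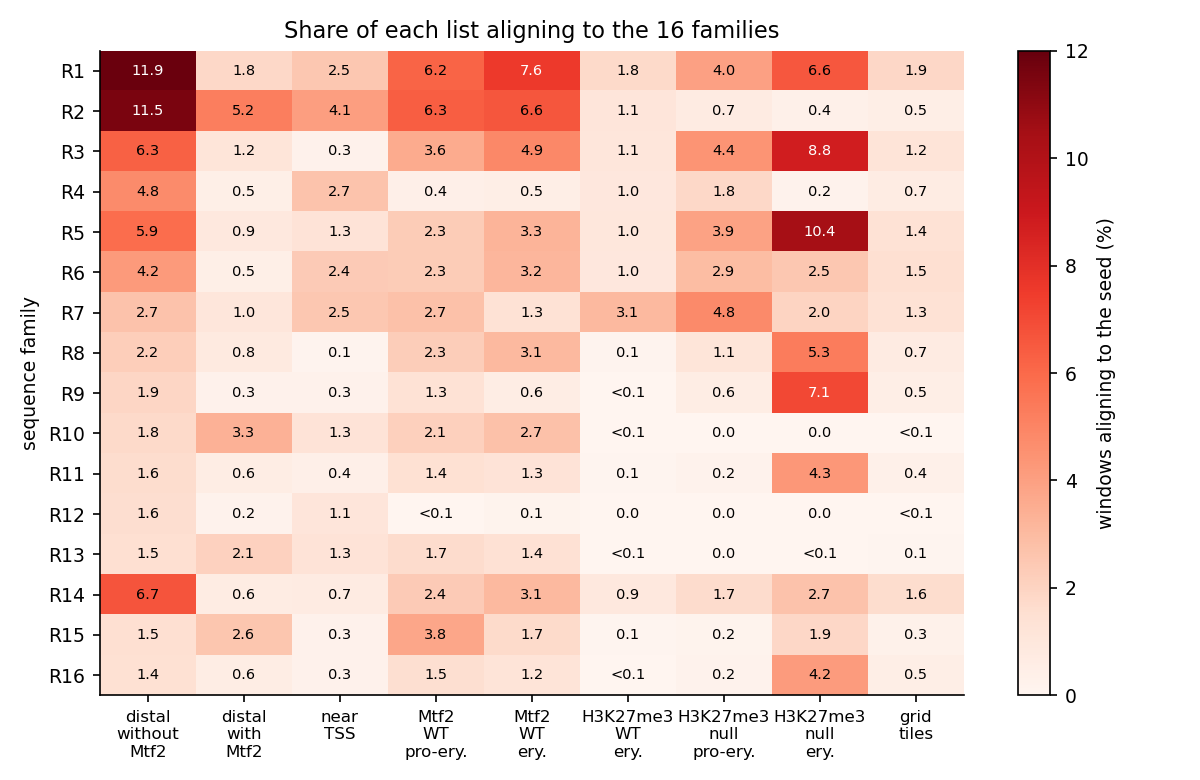
Percent of windows in each list (columns) that align over 100 or more bases to the central window of each family (rows, R1 to R16); darker red is a higher percent. R1 and R2 lead in members with 11.9% and 11.5%, R2 is low in the grid and in the H3K27me3 lists of WT erythroblasts (1.10%) and both null fractions (0.676% and 0.351%), and R3, R5 and R9 are high in the Mtf2-null erythroblast list.

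Members that aligned to a family and those that did not differed in more than repetition. The 854 aligned members had a median TSS distance of 66.6 kb, GC content of 42.5% and CpG ratio of 0.115. The 552 without a family had 37.6 kb, 45.2% and 0.218. All 19 CpG island-like members were among the 552, and 33 of the 37 members met by a WT erythroblast H3K27me3 peak were too. That overlap was 5.98% of the members without a family (interval 4.29 to 8.28%) and 0.468% of the aligned ones (0.182 to 1.20%). Median score was 56.1 in both. The split was drawn after the families were seen and no test was made on it.

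CpG content was low in the class as a whole. In 1 kb around the summit, members had a median GC content of 43.3% (interval 43.0 to 43.7%), against 41.4% in the grid windows, 44.7% with Mtf2 and 49.1% near a TSS. Their median CpG ratio was 0.139, below the 0.154 of the grid and well below the 0.332 with Mtf2 and 0.344 near a TSS. A window counted as CpG island-like with at least 50% GC and a ratio of at least 0.6. That held for 19 members, 1.35% (interval 0.867 to 2.10%), against 0.0787% of grid windows, 2.33% with Mtf2 and 18.3% near a TSS.

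The 6 CpG island-like members with the highest score are described here. The one with the highest score, 88.4, was nearest Zfp322a, a zinc finger gene, with 30 tags at chr13:23404859-23405987. The summit of the next, with 29 tags and a score of 78.7, lay in an exon of Ryr1, which encodes the calcium release channel of muscle. An intron of Rps6kl1 held another of score 78.7, with 20 tags. In Cdkn2a, a locus of cell cycle inhibitors that is a textbook Polycomb target, a peak of 24 tags and score 70.4 lay 5.61 kb from the nearest start, inside the gene and outside its exons. The other 2 among the first 6 by score were nearest Ripk4 and Rhcg, with 26 and 18 tags.

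**Figure D4:**
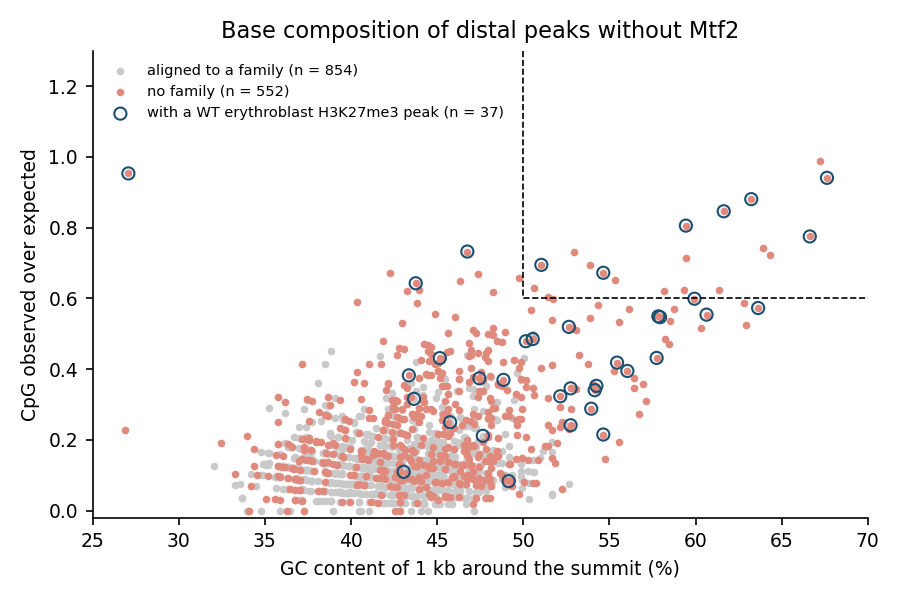
GC content (horizontal axis, percent) and CpG observed over expected (vertical axis) in 1 kb around the summit of each member, in grey where it aligned to a family and in red where it did not; blue rings are the 37 members met by a WT erythroblast H3K27me3 peak, and dashed lines bound the CpG island-like corner. The 19 members in that corner are all red.

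Short motifs were compared with the grid. Each motif was sought on both strands in the 300-base windows. The GATA words AGATAA or TGATAA, read by the erythroid factor Gata1, were in 33.9% of members (interval 31.4 to 36.4%) and 33.8% of grid windows. Distal peaks with Mtf2 held them in 43.0%. CAGATG, an E-box word of Tal1, was in 27.5% of members and 22.2% of the grid, and AGGAAGT, an Ets word, in 12.02% and 7.14%. CGCG was in 5.97% of members, 2.33% of grid windows and 18.1% of distal peaks with Mtf2. The CACC box CACACCC was in 7.40% and 4.57%, and the Runx word TGTGGT in 19.4% and 20.01%. Runs of CA repeated 6 times were in 2.42% of members and 4.53% of the grid, and A repeated 10 times in 2.99% and 6.04%. These are all 8 motifs sought. Shared families put the same word into many windows, so these shares do not count independent sites.

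Almost no member had an H3K27me3 peak in Mtf2-null cells. In Mtf2-null pro-erythroblasts 7 of the 1406 were met by a peak, 0.498% (interval 0.241 to 1.02%), where 0.319% of all 4695 autosomal peaks were. None of the 2577 distal peaks with Mtf2 was met by one, for which a count of 0 permits at most 0.116%, and 8 of the 712 near a TSS were. The share of members was near that of all peaks, and every peak of that null list carries an estimated FDR of 100%. In Mtf2-null erythroblasts 18 members had a peak, 1.28% (0.811 to 2.01%), against 0.895% of all peaks.

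Values in both libraries follow for the 6 of these 7 members with the highest score. Nearest E130309D14Rik the WT peak had 58 tags and the null peak 30, with folds of 9.31 and 7.29. Nearest Ahdc1 the tags were 30 and 27, with folds of 12.8 and 6.38, and the peaks shared 138 bases. In Rps6kl1 the tags were 20 and 41. Nearest Zfp644, a zinc finger gene, they were 22 and 44. In Kbtbd12, with Sec61a1 as the nearest start, they were 24 and 27, and in Chst11, a sulfotransferase gene, 16 and 29. The null library held more tags than the WT one in 5 of the 7, in a library of 37026535 unique tags against 18945784.

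The 18 members met by a Mtf2-null erythroblast peak all had more tags in that library, which was the deepest of the series, but lower folds there as a group, with a median of 5.07 against 7.90. The highest member score among them, 67.2, was that of the R6 stretch printed above, in an intron of Tm2d1, with 32 tags against 65. In an intron of Patl2, 11.8 kb upstream of B2m, the gene of the light chain of MHC class I, the tags were 55 and 58 and the folds 6.16 and 4.39. A member 107 kb from the start of Kitl, the stem cell factor gene, had 25 tags against 71. Upstream of Ghitm, a mitochondrial membrane protein gene, they were 64 and 230, and the fold was 6.00 in the WT library and 3.16 in the null one. Upstream of Tes, a cytoskeletal protein gene, they were 50 and 107, and near Gpam, a gene of triglyceride synthesis, 33 and 118.

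Few members were met by a called H3K27me3 peak in WT erythroblasts, and signal below the calling cutoff was not read. A WT erythroblast H3K27me3 peak met 37 members, 2.63% (interval 1.92 to 3.61%), where 6.13% of all autosomal peaks were met. Near a TSS the share was 31.9% (28.6 to 35.4%), and in distal peaks with Mtf2 0.931% (0.627 to 1.38%). With a TSS window of 10 kb the share of members was 1.67% (1.10 to 2.54%). With a score of at least 100 in every list it was 10.5%, from 2 of 19 members. These alternatives were computed for members only, so the order of the classes under them is not known and was not tested. Where both lists had a peak, the erythroblast one held more tags in 35 of 37 members, and the 37 erythroblast peaks had a median of 59 tags against 21 for those members. The erythroblast library had 30054186 unique tags against 18945784.

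Those 37 members were richer in GC than the rest, with a median of 52.7% and a CpG ratio of 0.432, and 19 of them had the summit inside a gene. The member nearest Evi5 had 47 tags and a fold of 10.96 in pro-erythroblasts, and its erythroblast peak 92 tags and a fold of 17.5. Nearest E130309D14Rik the tags were 58 and 90, and nearest Fcgr3, an antibody receptor gene of myeloid cells, 28 and 62. Nearest Ahdc1 they were 30 and 59, nearest Zfp322a 30 and 46, and nearest Ankrd60 33 and 34. In Onecut3, a homeobox gene, they were 30 and 100. The highest erythroblast score, 783 with 236 tags, belonged to a peak nearest Il17ra, a cytokine receptor gene chosen after its values were seen, where the member had 24 tags. Only 3 of the 37 erythroblast peaks reached into a TSS window.

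The erythroblast Mtf2 list met 16 members, 1.14% (interval 0.702 to 1.84%), where 12.9% of all autosomal peaks were met. In distal peaks with Mtf2 the share was 21.8%, and near a TSS 4.07%. The members were chosen for having no Mtf2 peak in pro-erythroblasts, and the erythroblast list comes from other libraries that the rule did not use. Among the 16, the member with the highest score, 75.3, lay nearest Gm4868 with 62 tags, and its Mtf2 peak had 25. A member of family R8 upstream of B3galt1, a glycosyltransferase gene, had 30 tags and the Mtf2 peak 56. Near Vmn2r92, a pheromone receptor gene, a member of R11 had 46 and the Mtf2 peak 55. In an intron of Tmem150c a member of R2 had 18 and the Mtf2 peak 15, with a fold of 22.7. Upstream of Cpa6 the tags were 42 and 33, and upstream of Tes 50 and 47. Only 4 of the 16 Mtf2 peaks had more tags than the member, in a library of 15669899 unique tags. The Dock2 member had 135 tags and the Mtf2 peak there also had 135. It was the only member met by both the erythroblast H3K27me3 and Mtf2 lists, and the GC content around it was 27.1% with a CpG ratio of 0.953.

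**Figure D5:**
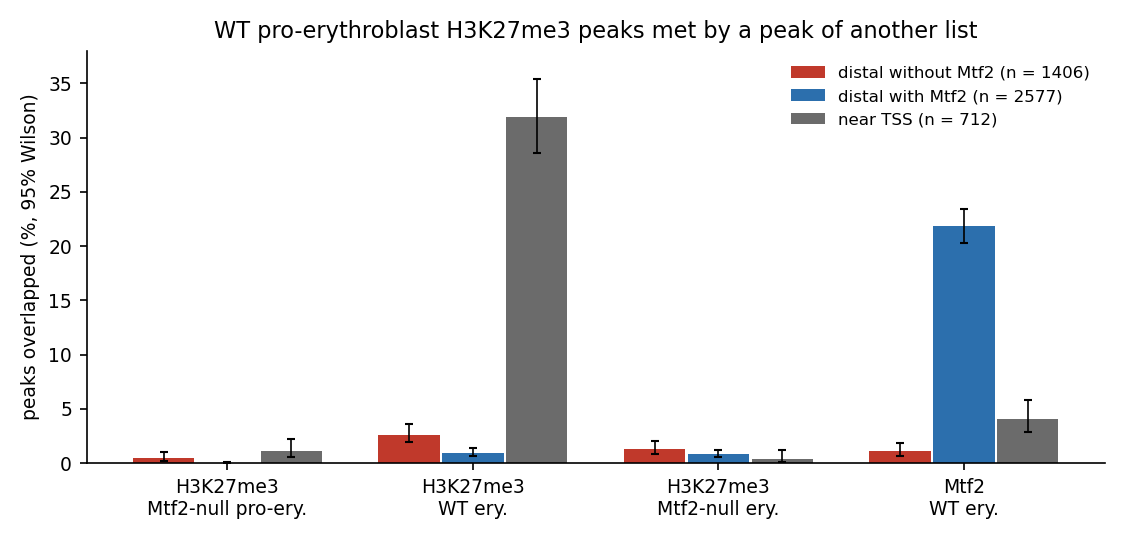
Percent of WT pro-erythroblast H3K27me3 peaks (vertical axis, bars from 0, error bars 95% Wilson intervals) that share at least 1 base with a peak of 4 other lists (horizontal axis), for distal peaks without Mtf2, distal peaks with Mtf2 and peaks near a TSS. Members stay at or below 2.63% in every list, while 31.9% of peaks near a TSS meet a WT erythroblast H3K27me3 peak and 21.8% of distal peaks with Mtf2 meet an erythroblast Mtf2 peak.

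Across all 4 lists, 73 members, 5.19%, were met by at least 1 peak and 1333 by none. The members met by 2 lists numbered 5, those nearest Dock2, E130309D14Rik, Ahdc1, Thumpd2 and Tes. The members met by a Mtf2-null erythroblast peak had a median GC content of 37.9%, and 12 of the 18 aligned to a family, against 4 of the 37 met by a WT erythroblast peak. Of all members 60.7% aligned to a family, so the 12 of 18 lay near the share of the whole class. None of the 18 was among the 37. Of the 469 members with the highest scores, from 59.6 upward, 3.41% were met by a WT erythroblast peak, and of the 468 with the lowest 2.35%.

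Along the chromosomes members were spread thinly. Summits lay between genes in 1040 members (74.0%), in introns in 349 (24.8%) and in exons in 17 (1.21%). The share inside a protein-coding gene was 26.03% (interval 23.8 to 28.4%), against 22.0% for distal peaks with Mtf2. Median distance to the nearest protein-coding TSS was 50.3 kb (45.8 to 57.6 kb), against 78.7 kb with Mtf2, and reached 2109 kb upstream of Pcdh17, a neuronal cadherin gene. The nearest Mtf2 peak lay at a median of 39.2 kb, within 1 kb for 37 members and over 100 kb away for 288. Density ran from 0.425 members per Mb on chromosome 15 to 0.717 on chromosome 12, where the R12 cluster lies. Chromosomes 17 and 18 came close to the latter, at 0.714 and 0.705.

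Another member lay within 50 kb of 123 members, 8.75% (interval 7.38 to 10.3%). In distal peaks with Mtf2, which are more numerous, the same share was 37.1%. The 123 formed 59 runs, 54 of them pairs. The 5 runs of 3 lay near Evi5, at Osr2, at Onecut3 and Tcf3, near Gm17680, and near Gli3. The tightest, near Evi5, put 3 peaks of 17 to 47 tags into 4.03 kb. Osr2, Onecut3 and Gli3 encode transcription factors of development, and Tcf3 one of lymphocytes. At Osr2 the 3 peaks spanned 21.6 kb with 17 to 36 tags, and near Gli3 50.03 kb with 17 to 57 tags.

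Members were assigned to their host gene or to the gene with the nearest TSS and counted by list. The lists were drawn up with earlier results of these data known. The list of erythroid genes, 38 matched, had 1 member, 0.0711% of members against 0.0426% of all peaks, 74.7 kb upstream of Kit, the stem cell factor receptor, with 16 tags and a score of 50.7. The 64 genes of the Wnt pathway had 10 members at 8 genes, 0.711% of members against 0.469% of all peaks. Among them were a member of 22 tags near Wnt8a, a ligand, a pair on either side of the start of Wif1, a secreted Wnt inhibitor, with 27 and 26 tags, and 1 of 17 tags near Nkd2, an intracellular inhibitor. The list of 7 CDK inhibitors had 3 members, at Cdkn2a, Cdkn1a and Cdkn2c, with 24, 16 and 38 tags, or 0.213% of members against 0.128% of all peaks. Of the Polycomb genes 1 had a member, 43.4 kb upstream of Ezh2, the PRC2 methyltransferase, with 33 tags and a score of 91.9, where 2 of all 4695 peaks lay at a gene of that list. Of the Hox genes 1 had one, 7.92 kb from a start of Hoxd3, with 17 tags, where 3 of all 4695 peaks lay at a Hox gene.

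The list of 174 developmental transcription factors had 40 members at 30 genes, 2.84% of members against 2.39% of all peaks. Zic4, of the cerebellum, had members of 16 and 26 tags with scores of 81.6 and 80.3, both far upstream at 105 and 166 kb. Foxc2, of the mesenchyme, had 1 of 16 tags. Of the 40, 3 were also met by a peak of another list, where 73 of all 1406 members, 5.19%, were. Olfactory, vomeronasal and taste receptor genes had 33 members, 2.35% against 3.15% of all peaks, with the highest score, 81.4, upstream of Olfr362 and the highest fold, 24.9, near Olfr748, and neuronal adhesion and synapse genes 30, 2.13% against 2.17%. The member of 17 tags in an intron of Nkain3, of neurons, scored 104, and 1 of 28 tags upstream of Ctnna2, a catenin gene, 89.1. Stem cell, myeloid, lymphoid and megakaryocyte genes had 5 members at 4 genes, 0.356% against 0.383% of all peaks, with the highest score, 78.8, near Mecom, a stem cell factor, from 24 tags. Hepatocyte and endothelial genes had 2, near Sox17 and Apob, with 18 and 20 tags, or 0.142% against 0.149% of all peaks. Potassium channel genes had 13, or 0.925% against 1.06% of all peaks, among them a pair of 22 and 26 tags near and in Kcnmb2, a channel subunit gene. These shares describe the lists and were not tested.

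By gene rather than list, 4 genes had 5 or more members. Gm20388, an annotated gene of 4.43 Mb on chromosome 8, hosted 7. Gm17391 and Gm17680, in the R12 region of chromosome 12, were nearest to 7 and 5, and Lrrn3, a neuronal membrane protein gene, to 5. The count at a gene goes with the span it is nearest to, which was not adjusted for.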

How the data were processed

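The authors immunoprecipitated chromatin of sorted cells, aligned the reads with Bowtie (Bowtie2 2.2.3 in the submitters' processing notes) and called peaks with MACS 1.3.7 against IgG. The deposited peak lists give, per peak, tags as counts, a score (10 times -log10 of p), a fold ratio over IgG and an FDR in percent. Their headers give a p-value cutoff of 1.00e-05, a tag size of 25 and a band width of 300. Replicate pooling and the treatment of reads with several matches are not given in the sources used here.

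Coordinates were read on NCBIM37 with GENCODE M1 protein-coding TSS, of which there were 69976. Columns of other samples numbered 0. Members and gene lists were chosen with earlier results of these data known. With 1 library per condition no test was possible. Shares carry 95% Wilson intervals, which cover counting error only, and a count of 0 was taken to allow up to 3 counts. An overlap was 1 shared base. Sequence windows of 300 bases were aligned with BLAST+ 2.17.0 at an expect value of 1e-10, and single-copy words were counted with numba 0.67.0. Python 3.11.15, numpy 2.4.6, pandas 2.3.3 and scipy 1.17.1 were used. The overlap, word and family counts were tested on simulated data.

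Members were named as the 8 highest by score and by fold, the 5 longest, up to 6 by score for each overlapping list and for CpG island-like windows, the 5 densest runs, those at the rule's limits, genes with 5 or more members, and the top 2 to 4 of each gene list. Naming the most tags, the double overlaps and the families was added after values were seen. Alternatives changed the FDR, score, overlap, TSS window, Mtf2 distance and summit.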

Additional observations from a re-analysis of the deposited data

How the results depend on the processing

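Of 72 alternative values, 52 stayed within the main interval, or within 1.5 times the count, and 20 did not. An FDR of at most 5% left 0 members, so it gave no other value, and only 1 of all 4695 autosomal peaks of the list met that limit. A score of at least 100, asked of every list, left 19 members. Among them 0% were met by a Mtf2-null pro-erythroblast, Mtf2-null erythroblast or erythroblast Mtf2 peak, 10.5% (2.94 to 31.4%) by a WT erythroblast H3K27me3 peak, 31.6% lay in a gene, 0% were CpG island-like and 0% had a neighbour within 50 kb. Their median GC content was 42.4%, TSS distance 82.1 kb and fold 10.7. With a TSS window of 10 kb the WT erythroblast share was 1.67% and the median TSS distance 65.1 kb. Leaving out members aligned to a family, an alternative chosen after seeing the data, left 552, with a WT erythroblast share of 5.98%, a CpG island-like share of 3.44%, a GC content of 45.2% and a TSS distance of 37.6 kb. At least 200 aligned bases, chosen in the same way, lowered the share of members aligned to a family to 29.7%. The cause of these shifts was not tested. Whether more depth would change the members was not tested. No paired analysis was possible because each condition has 1 library.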
